A study of Mus musculus with 31 samples.

Results

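The histone demethylases and their relatives with a JmjC domain were followed through the reprogramming of mouse fibroblasts. The set was a fixed list of 31 genes out of 29267 gene identifiers: Kdm1a and Kdm1b, and 29 genes of the JmjC family. All 31 were found in the deposited tables, and 30 had enough counts to be tested. Kdm4d, an H3K9me3 demethylase, held between 0 and 3 counts per library, with 0 counts in 15 of the 31 libraries, and was not tested. Every gene of the list is protein coding.

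Histone demethylases remove methyl groups from lysines of histone H3 or H4. Kdm1a and Kdm1b do so with a flavin cofactor, whereas JmjC enzymes use iron, oxygen and the metabolite 2-oxoglutarate, and ascorbate (vitamin C) keeps the iron of such enzymes reduced. The marks they act on differ in what they accompany: H3K4 methylation lies at active promoters and enhancers, H3K36 methylation over transcribed bodies, and H3K9 and H3K27 methylation at silenced chromatin, which has to be rebuilt when a fibroblast becomes pluripotent. Some JmjC proteins hydroxylate other proteins or RNA instead, and Jarid2 has lost the enzymatic activity.

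All cells were of the strain 129/OG2, whose OG2 transgene reports Pou5f1 with a green fluorescent protein. Cells under reprogramming by OKSM (Pou5f1, Klf4, Sox2 and Myc) carried a Flag virus, taken as the control, or a Tet1CD virus, were kept in DMSO, Vc (vitamin C) or DKG, and were collected at day 3 or day 8, which gives 12 groups of 2 libraries. Untreated fibroblasts (MEF, passage 2) and untreated embryonic stem cells (ESC) had 2 libraries each, and 3 single libraries of MEF kept in DMSO, Vc or DKG are given as values. The labels explain neither DKG nor the content of Tet1CD, give no doses, and name 2 different compounds for the MEF library called DKG here. Whether the 2 libraries of a group are separate cultures is not stated, and the p-values below therefore reflect a spread between libraries that may be technical.

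Depth lay between 3953297 and 6818060 counts per library. Levels are CPM (counts scaled to a common library total, with TMM) for 1 gene across libraries, and TPM (per transcript length) between genes. Libraries of a group carry the numbers 0824 and 0826, and values are given in that order. The ESC libraries are given as 0822 (passage 17) and 0819 (passage 19) after their titles, although the numbers in their files are swapped. They stood apart from each other: the 8 fibroblast markers summed to 10220 CPM in ESC 0822 and to 76.03 CPM in ESC 0819, against 32650 and 34160 CPM in MEF. Each of the 8 pluripotency markers had counts in both ESC libraries, with sums of 2405 and 3498 CPM. Results with ESC for genes of the list are therefore also given with each library alone. Those for genes outside the list rest on both ESC libraries together. Tet1 read 183.6 to 687.4 CPM in the 12 Tet1CD libraries and 4.38 to 32.6 CPM in the 12 Flag libraries, with no overlap, and these reads may come from an introduced sequence or from the gene itself.

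The promoters of the list are shown first, since the introduced factors Myc, Klf4, Sox2 and Pou5f1 bind short motifs that can be looked for in them. RefSeq windows (GRCm38.p6) of 250 bases before to 50 bases after a start were matched by symbol to 25 of the 31 genes, giving 33 windows. They were rich in CpG, with a median of 24 CpG per window against 7 over all windows of that length. Both strands were searched for the Myc-type E-box CACGTG, a Klf4-type motif GGGNGTGG, a Sox-type motif CTTTGT and the octamer ATGCAAAT. The E-box was in windows of 3 genes (3 of 33 windows, against 7.15% of all 32851 windows), the Klf4-type motif in 6 windows (17.6% of all), the Sox-type motif in 6 (18.7%) and the octamer in 0 (1.74%). Such a match describes letters and is no evidence of binding.

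Printed here are the 250 bases before the start, 5′ to 3′ on the strand of the gene, of the 3 genes with an E-box and of Kdm7a. Those 3 were each called higher in ESC than in MEF, as were 46.7% of the list's tested genes and 26.8% of all genes. For Kdm4c the log2 fold change was 0.81 with ESC 0822 alone and 2.38 with ESC 0819 alone. A link between E-box and call was not tested. Kdm7a stood high during reprogramming and had the most CpG (65 in its window) with none of these motifs. Capitals mark the motifs. The positions are chr16:35770136-35770385 (+) for Hspbap1, chr4:74251629-74251878 (+) for the second Kdm4c window, chrX:18162325-18162574 (+) for Kdm6a and chr6:39206774-39207023 (-) for Kdm7a. In Hspbap1 the capitals are an E-box, a Klf4-type motif and an E-box, in Kdm4c 2 E-boxes, and in Kdm6a a Sox-type motif followed by an E-box.
Hspbap1: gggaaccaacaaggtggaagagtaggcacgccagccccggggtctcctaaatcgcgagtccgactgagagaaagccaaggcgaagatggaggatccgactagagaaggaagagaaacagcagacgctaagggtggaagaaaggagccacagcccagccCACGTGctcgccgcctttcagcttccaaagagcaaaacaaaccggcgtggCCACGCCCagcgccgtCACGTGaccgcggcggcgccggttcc
Kdm4c: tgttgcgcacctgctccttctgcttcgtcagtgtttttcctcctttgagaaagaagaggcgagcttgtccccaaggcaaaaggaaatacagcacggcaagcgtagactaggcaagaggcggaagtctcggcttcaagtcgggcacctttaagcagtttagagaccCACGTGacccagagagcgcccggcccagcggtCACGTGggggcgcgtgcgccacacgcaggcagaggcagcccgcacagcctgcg
Kdm6a: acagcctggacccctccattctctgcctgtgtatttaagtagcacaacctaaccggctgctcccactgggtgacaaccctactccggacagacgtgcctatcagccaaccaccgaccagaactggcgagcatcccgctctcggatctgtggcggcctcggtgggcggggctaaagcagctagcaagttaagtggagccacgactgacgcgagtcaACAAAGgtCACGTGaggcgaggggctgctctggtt
Kdm7a: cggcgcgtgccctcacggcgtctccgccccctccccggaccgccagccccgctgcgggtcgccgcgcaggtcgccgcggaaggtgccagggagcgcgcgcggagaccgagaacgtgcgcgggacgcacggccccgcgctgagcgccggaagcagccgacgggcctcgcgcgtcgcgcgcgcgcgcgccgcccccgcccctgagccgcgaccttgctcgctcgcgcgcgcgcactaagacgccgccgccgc

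The summed level of the 31 genes was lowest in MEF, at 756.8 and 801.6 TPM, and highest in ESC, at 1415 and 1776 TPM. Day 3 libraries lay between 980.5 and 1208 TPM (median 1041), and day 8 libraries between 945 and 1219 TPM (median 1147), so the 2 days overlapped and all 24 reprogramming libraries lay between MEF and ESC. Kdm1a had the highest median of the list in every class, with 84.8 TPM in MEF, 108.7 at day 3, 105.5 at day 8 and 198.4 in ESC. Kdm4d had the lowest.

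Most of the change in the list lay between cell states. Between ESC and MEF, 14 of the 30 genes tested were higher in ESC and 2 lower by edgeR's quasi-likelihood test (adjusted p under 0.05, the call used throughout), or 46.7% and 6.67%. Of all 14914 genes tested, 26.8% were higher and 25.7% lower. Unless another fit is named, calls are those of the main fit of 28 libraries, which has no term for the library number. The median log2 fold change was 0.43 in the list and 0.00 over all genes. Bulk RNA cannot tell fewer cells of a type from less RNA per cell, here and below. Between Flag cells in DMSO at day 3 and MEF, 6 genes rose and 0 fell, against 14.8% and 13.9% of all genes, and 26 of 30 had a positive fold change. That comparison had 2 libraries on each side: 14 of the 30 had an unadjusted p under 0.05 (40.5% of all genes did), DESeq2 called 4, all higher (14.5% of all genes were higher and 16.5% lower), and leaving out 1 library lowered the count to between 2 and 4 (2 without MEF 0826 or without the Flag DMSO library 0824, 3 without MEF 0824). From day 3 to day 8, averaged over the 6 combinations of virus and medium, 8 genes rose and 1 fell, against 14.4% and 10.7% of all genes.

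Markers of other cells moved with these contrasts. The 8 fibroblast markers summed to between 1926 and 5123 CPM at day 3 and between 1814 and 6631 CPM at day 8, far below MEF. The 6 macrophage markers summed to 441.6 and 2096 CPM in MEF, where all 6 had counts, and to between 7.84 and 64.53 CPM at day 3. At day 8 the Tet1CD Vc library 0824 stood apart at 805 CPM, with counts of all 6, while the other libraries lay between 5.71 and 20.63 CPM. Between Tet1CD and Flag cells 3 of these 6 markers had an unadjusted p under 0.05 and 0 were called (median log2 fold change 2.46). Without that library edgeR still called 0 members for Vc (0.396% of all genes) and for Tet1CD (1.82%), and 12 higher and 5 lower in ESC than in day 8 Vc cells (43.2% of all genes in either direction). The 6 epithelial markers rose from between 15.53 and 61.22 CPM at day 3 to between 84.17 and 419.8 CPM at day 8, and all 6 were called. The part of these cell types in the values of the demethylases was not tested.

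**Figure D1:**
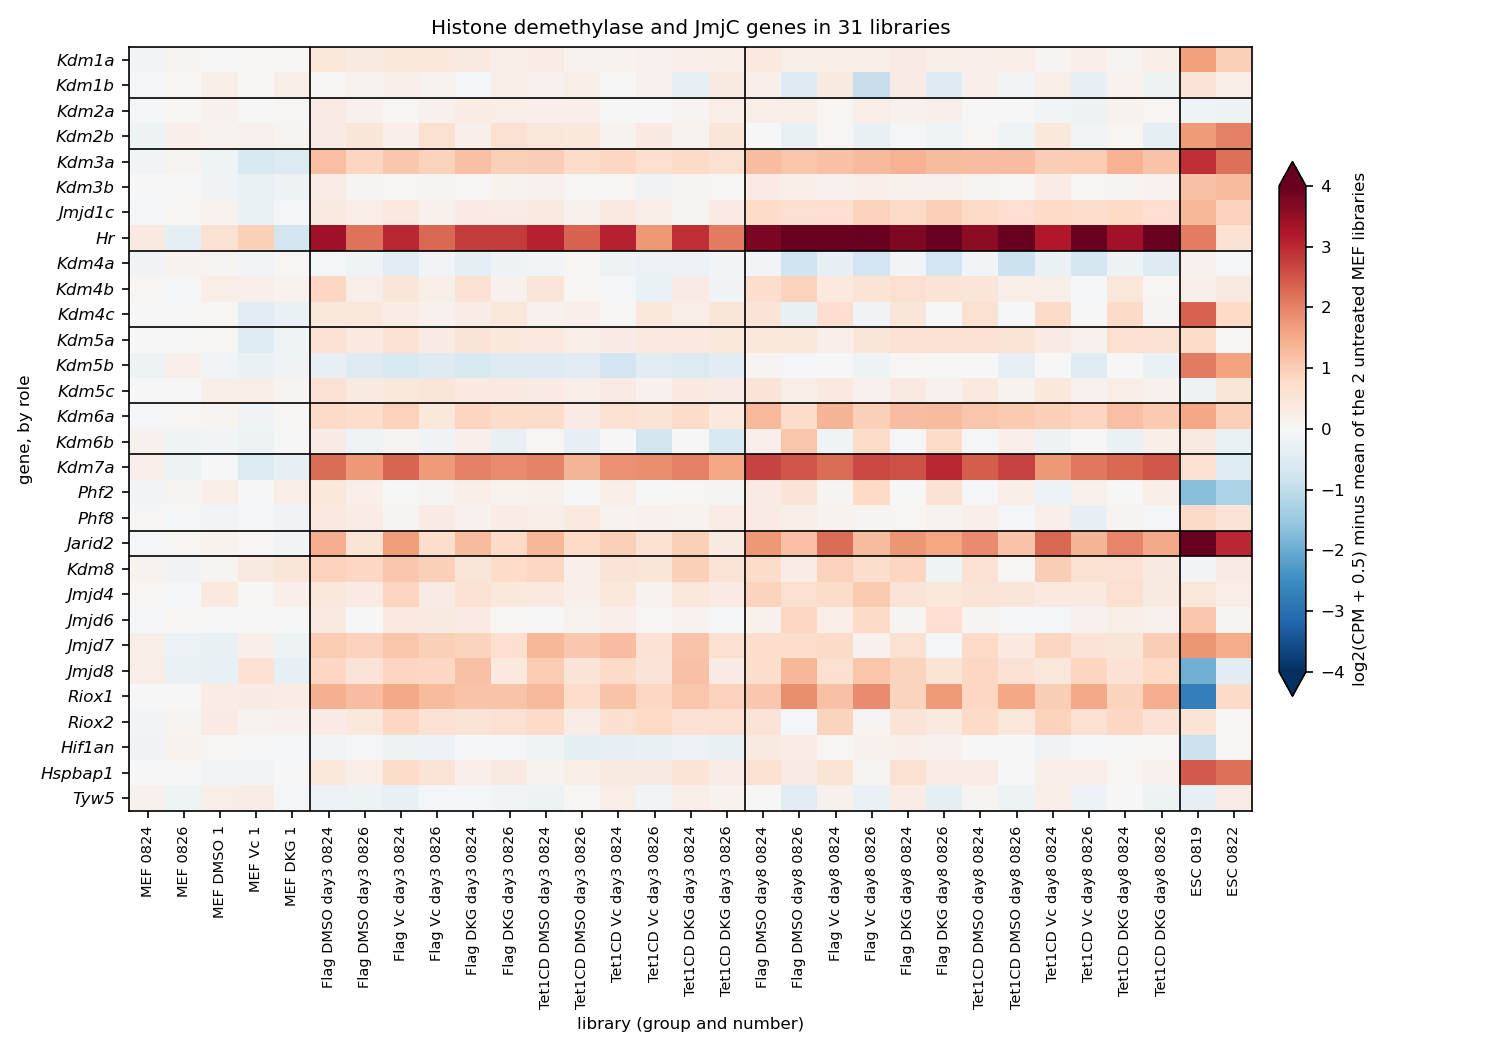
Level of the 30 tested genes (rows, grouped by role) in the 31 libraries (columns), as log2(CPM + 0.5) minus the mean of the 2 untreated MEF libraries; the colour scale ends at 4 and -4, and black lines separate roles and the classes MEF, day 3, day 8 and ESC. Hr and Kdm7a are red throughout reprogramming, in varying depth, and mostly paler in ESC, whereas Jarid2 and Kdm3a deepen towards ESC.

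The flavin-dependent enzymes act on H3K4me1 and H3K4me2. Kdm1a (LSD1; chr4:136550540-136602723 in mm10), the catalytic subunit of CoREST complexes, had 105.7 and 122.7 CPM in MEF and 221.2 and 352.7 CPM in ESC, a log2 fold change of 1.33 ± 0.16 (SE; adjusted p = 6.99e-06). All 24 reprogramming libraries, at 121.8 to 156.7 CPM, lay below both ESC libraries, and 23 of them above both MEF libraries. Kdm1b, known for its part in maternal imprints, was not called in any comparison, with 17.4 and 19.5 CPM in MEF and 22.25 and 26.83 CPM in ESC. Its day 8 libraries split by number: the day 8 minus day 3 difference of log2 means was 0.24 among libraries 0824 and -0.65 among libraries 0826. Of 11 CoREST partners of Kdm1a, 3 were higher in ESC than in MEF (26.8% of all genes were) and 3 lower (25.7%). The largest was Rcor2, a corepressor scaffold, at 3.63, followed by Hdac1, a histone deacetylase, at 1.67, while the scaffold Rcor3 was lower by a log2 fold change of -1.44.

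Kdm2a and Kdm2b demethylate H3K36 and bind unmethylated CpG through a zinc finger, and Kdm2b brings a variant PRC1 complex to CpG islands. Kdm2b (chr5:122870665-122989823) had 39.3 and 52.01 CPM in MEF and 183.4 and 149.7 CPM in ESC, a log2 fold change of 1.87 ± 0.24 (adjusted p = 1.22e-05). It was the 1 gene of the list that fell from day 3 to day 8, from between 49.68 and 69.9 CPM (median 59.42) to between 34.64 and 61.39 CPM (median 42.05), by -0.44 ± 0.10 (adjusted p = 0.00319). The fall was unequal between the numbers, at -0.15 among libraries 0824 and -0.73 among libraries 0826. All 24 reprogramming libraries lay below both ESC libraries, so Kdm2b moved away from the ESC level between the 2 days. Kdm2a was not called in any of these contrasts. In 18 of 24 reprogramming libraries it lay above both untreated MEF and both ESC libraries. The single libraries of MEF in DMSO, Vc and DKG read 190.1, 167.1 and 174.5 CPM, within the reprogramming range of 147.2 to 210.6 CPM. Of 9 variant PRC1 partners, 5 were higher in ESC than in MEF (26.8% of all genes were) and 1 lower (25.7%). Among these partners were the adaptor Rybp at 2.03, the deubiquitinase Usp7 at 1.93 and Yaf2, the paralogue of Rybp, at -1.79. At day 8 against day 3, Rybp rose by 0.73, and Bcorl1 and Yaf2 fell by -0.54 and -0.53. The rise of Rybp lay in libraries 0826, from 67.54 to 87.2 CPM at day 3 to as much as 235.8 CPM at day 8. Libraries 0824 read 79.14 to 97.14 CPM at day 3 and 81.14 to 97.5 CPM at day 8. Bcorl1 fell more among libraries 0826, from 28.06 to 36.31 CPM to 14.03 to 18.98 CPM. Among libraries 0824 it went from 28.52 to 39.39 CPM to 25.62 to 32.29 CPM.

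The demethylases of H3K9me1 and H3K9me2 were Kdm3a, Kdm3b, Jmjd1c and Hr. Kdm3a (chr6:71588972-71632990), which in stem cells acts at pluripotency genes, had 55.62 and 64.2 CPM in MEF, 137.9 and 108.0 CPM in Flag DMSO cells at day 3, and 274.4 and 454.8 CPM in ESC. The groups did not overlap. The log2 fold change was 1.04 ± 0.20 at day 3 against MEF (adjusted p = 0.00106) and 2.60 ± 0.21 in ESC against MEF (adjusted p = 7.23e-08). All 24 reprogramming libraries lay above both MEF and below both ESC libraries, which holds for 2 of the 30 genes (Kdm3a and Jarid2) and for 2.65% of all genes tested. From day 3 (91.75 to 137.9 CPM, median 110.4) to day 8 (119.6 to 159.0 CPM, median 141.0) it rose by 0.31 ± 0.08 (adjusted p = 0.00796), with overlap between the days.

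Jmjd1c, a relative of Kdm3a, was the only gene of the list whose day 3 and day 8 libraries did not overlap (not counted over all genes). It had 99.58 to 122.2 CPM (median 114.2) at day 3 and 143.7 to 180.5 CPM (median 155.3) at day 8, a rise of 0.48 ± 0.06 (adjusted p = 4.04e-05) that measured 0.43 among libraries 0824 and 0.53 among libraries 0826. MEF had 88.05 and 97.71 CPM and ESC had 176.6 and 235.9 CPM (1.15 ± 0.16, adjusted p = 1.79e-05). The third relative, Kdm3b, was higher in ESC than in MEF by 1.23 ± 0.12 (adjusted p = 9.24e-07), with 94.92 and 98.12 CPM in MEF and 234.7 and 218.6 CPM in ESC, and was not called between days.

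Hr (hairless; chr14:70552212-70573548), a corepressor of nuclear receptors with H3K9 demethylase activity, took another course. It had 2.36 and 1.22 CPM in MEF, 22.85 and 9.40 CPM in Flag DMSO cells at day 3, and 2.78 and 8.75 CPM in ESC. The rise over MEF was 3.17 ± 0.80 (adjusted p = 0.00686). This call was lost without MEF 0826 or without the Flag DMSO library 0824, with an adjusted p of up to 0.0933. At day 8 the 12 libraries lay between 19.75 and 94.58 CPM (median 35.95), against 6.90 to 22.85 CPM (median 14.93) at day 3, a further rise of 1.50 ± 0.27 (adjusted p = 0.000591). The day difference was 0.56 among libraries 0824 and 2.35 among libraries 0826, and the highest library was Flag Vc 0826 at day 8. In 23 of 24 reprogramming libraries Hr was above all MEF and ESC libraries. ESC was not called against MEF (1.68 ± 0.84, adjusted p = 0.0984).

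**Figure D2:**
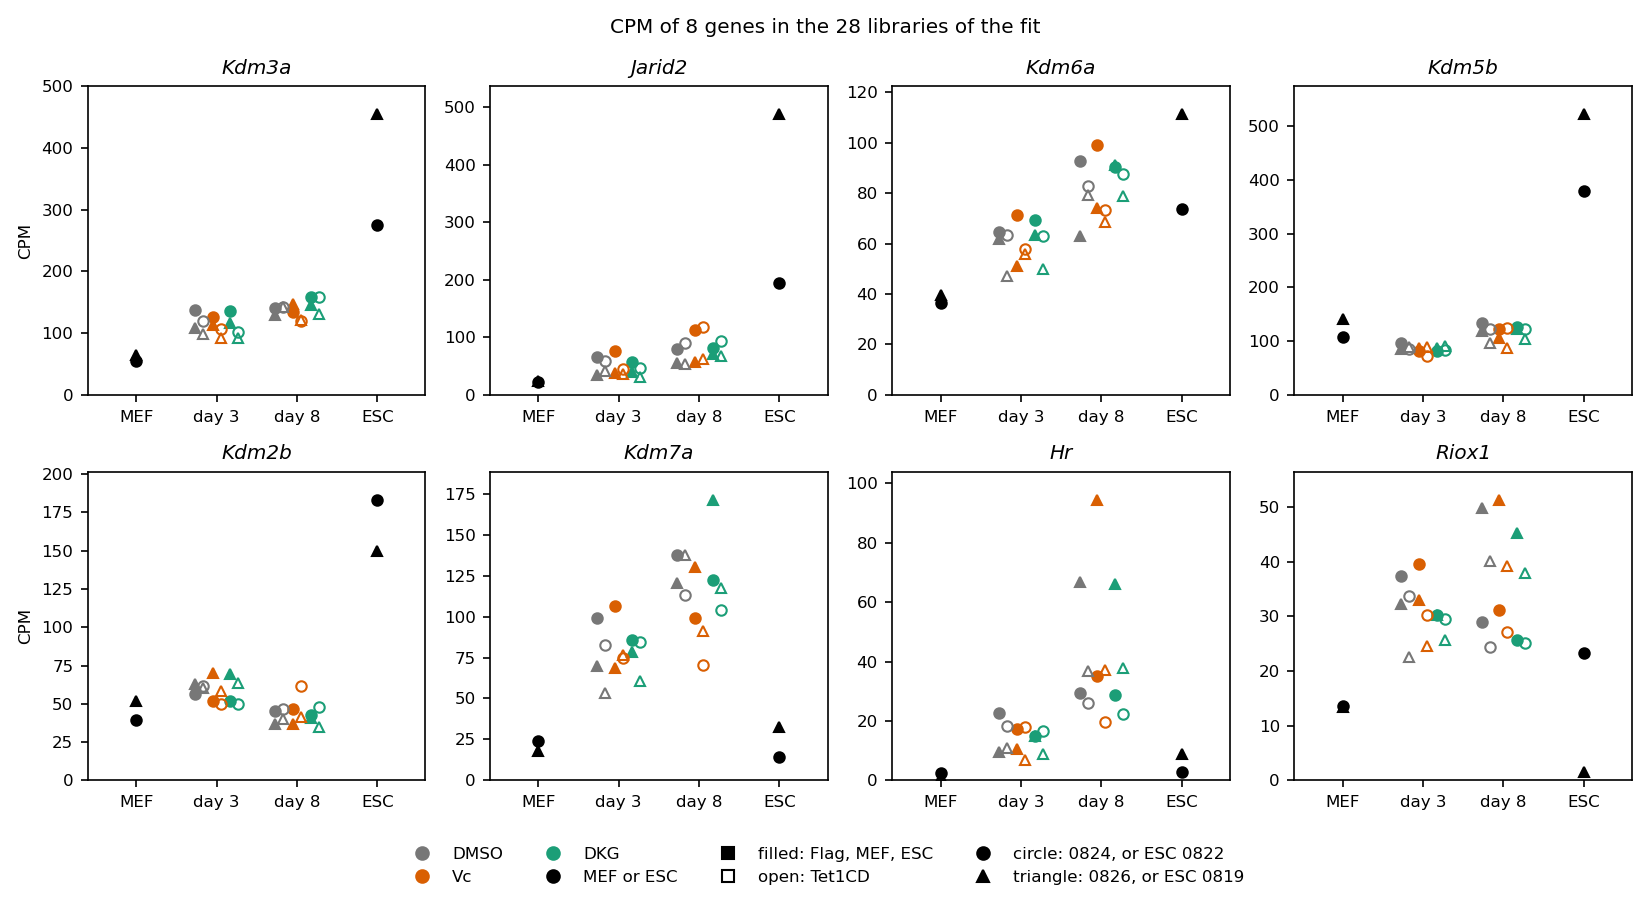
CPM of 8 genes in the 28 libraries of the groups with 2 libraries, by class (MEF, day 3, day 8, ESC), coloured by medium, filled for Flag and open for Tet1CD, with circles and triangles for the 2 library numbers; each axis starts at 0. Kdm3a and Jarid2 climb through the classes, Kdm2b is lower at day 8 than at day 3, Kdm7a and Hr peak during reprogramming, and Riox1 differs between the ESC libraries (23.25 and 1.56 CPM).

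Kdm4 enzymes remove H3K9me3 and H3K36me3. Kdm4c (chr4:74242497-74405860) had 39.94 and 41.65 CPM in MEF and 71.73 and 213.1 CPM in ESC (1.80 ± 0.42, adjusted p = 0.00208). The call rested on 1 library: it was 2.38 with ESC 0819 alone and 0.81 with ESC 0822 alone (adjusted p = 0.112). Between days the numbers disagreed in direction, at 0.39 among libraries 0824 and -0.43 among libraries 0826. Kdm4a did likewise (0.05 and -0.61) and was below both MEF libraries in 16 of 24 reprogramming libraries. Kdm4b was not called in these contrasts, with 29.64 and 27.83 CPM in MEF, 51.29 and 34.11 CPM in Flag DMSO cells at day 3, and 36.76 and 33.25 CPM in ESC.

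Kdm5 enzymes remove H3K4me2 and H3K4me3. Kdm5b (chr1:134560171-134635285), a demethylase abundant in stem cells, had 107.2 and 141.4 CPM in MEF and 378.9 and 522.5 CPM in ESC (1.86 ± 0.20, adjusted p = 2.01e-06). At day 3 its 12 libraries, at 72.69 to 97.16 CPM (median 86.47), all lay below both MEF libraries. The planned test of Flag DMSO cells at day 3 against MEF did not call it. At day 8 the libraries lay between 87.65 and 133.2 CPM (median 122.1), a rise of 0.43 ± 0.08 (adjusted p = 0.000981). Of these 12, 4 libraries (all numbered 0826) were still below both MEF libraries. Both ESC libraries were above all 24 reprogramming libraries. Kdm5a was higher at day 3 (0.49, adjusted p = 0.0378) and in ESC (0.44, adjusted p = 0.0374) than in MEF. The second call was lost with ESC 0822 alone (0.08), without either MEF library and without a filter on low counts, and the first was lost in 7 of 10 alternatives, including DESeq2 and each library left out. Kdm5c was not called, with 143.0 and 144.0 CPM in MEF and 157.2 to 213.5 CPM during reprogramming. The single libraries of MEF in DMSO, Vc and DKG read 167.6, 172.2 and 155.8 CPM, so those in DMSO and Vc lay within that range. Kdm5c and its copy on the Y chromosome, Kdm5d, share sequence, and the authors' counting divides shared reads by a model.

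Kdm6a and Kdm6b remove H3K27me2 and H3K27me3, the Polycomb mark. Kdm6a (UTX; chrX:18162575-18279936), a subunit of the MLL3 and MLL4 complexes and like Kdm5c with a copy on the Y chromosome, had 36.29 and 39.61 CPM in MEF, 64.77 and 61.76 CPM in Flag DMSO cells at day 3, and 73.92 and 111.4 CPM in ESC. It rose by 0.74 ± 0.23 at day 3 (adjusted p = 0.0235, lost when any 1 of the 4 libraries was left out) and was 1.29 ± 0.23 higher in ESC than in MEF (adjusted p = 0.000243). From day 3 (47.25 to 71.51 CPM, median 62.43) to day 8 (62.85 to 99.07 CPM, median 81.07) it rose by 0.45 ± 0.09 (adjusted p = 0.00202), by 0.43 among libraries 0824 and 0.46 among libraries 0826. All 24 reprogramming libraries were above both MEF libraries, and 15 were below both ESC libraries. Kdm6b (JMJD3), which is induced by many stimuli, was not called, and its day difference had opposite signs, at -0.22 among libraries 0824 and 0.89 among libraries 0826. Of 9 partners of Kdm6a in the MLL3 and MLL4 complexes, 6 were higher in ESC than in MEF (26.8% of all genes were) and 0 lower (25.7%). The partners were led by the core subunits Dpy30 (2.84) and Wdr5 (2.60) and by Paxip1 (2.45), which is particular to these complexes. Already at day 3 in Flag DMSO cells 3 of the 9 partners were higher than in MEF (14.8% of all genes were). These were Dpy30 by 1.90, Wdr5 by 1.12 and Paxip1 by 1.00.

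The PHD-JmjC enzymes bind H3K4me3 with a PHD finger and act on silencing marks nearby. Kdm7a (chr6:39136623-39206789), which removes H3K9me2 and H3K27me2, had 24.05 and 17.67 CPM in MEF, 99.29 and 69.87 CPM in Flag DMSO cells at day 3, and 14.5 and 32.47 CPM in ESC. It rose at day 3 by 2.02 ± 0.34 (adjusted p = 0.000408), and in each of the 10 alternatives computed. All 24 reprogramming libraries, at 53.5 to 171.4 CPM, were above both untreated MEF and both ESC libraries. This holds for 2 of the 30 genes (Kdm7a and Jmjd8) and 4.95% of all genes tested. In the single libraries of MEF in DMSO, Vc and DKG, Kdm7a read 20.73, 14.03 and 16.5 CPM. From day 3 (median 77.54 CPM) to day 8 (median 118.9 CPM) it rose by 0.57 ± 0.13 (adjusted p = 0.00413), by 0.26 among libraries 0824 and 0.89 among libraries 0826. Phf2, an H3K9me2 demethylase, was the gene with the largest called decrease between MEF and ESC, from 76.24 and 87.15 CPM to 34.18 and 24.89 CPM (-1.47 ± 0.25, adjusted p = 0.000128). It was above both ESC libraries in 24 of 24 reprogramming libraries. Phf8, which acts on H3K9me2 and H4K20me1, was 0.66 ± 0.17 higher in ESC than in MEF (adjusted p = 0.00399).

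Jarid2 (chr13:44729474-44921643) directs PRC2, the H3K27 methyltransferase complex, and had the largest increase between MEF and ESC. It had 22.33 and 24.99 CPM in MEF and 194.5 and 488.1 CPM in ESC, with no overlap (3.85 ± 0.53, adjusted p = 1.89e-05), or 3.03 with ESC 0822 alone and 4.37 with ESC 0819 alone. At day 3 it lay between 30.45 and 76.29 CPM (median 43.54) and at day 8 between 52.92 and 118.9 CPM (median 76.01), a rise of 0.73 ± 0.19 (adjusted p = 0.0107) that measured 0.72 within each number. The library 0824 was above the library 0826 in all 12 reprogramming groups. Of 11 PRC2 subunits and partners, 6 were higher in ESC than in MEF (26.8% of all genes were) and 1 lower (25.7%). Epop (4.57), the accessory subunit Mtf2 (3.50) and the core subunit Suz12 (2.50) were highest, and the accessory subunit Phf19 was lower (-2.24). Between days Suz12 rose by 0.31, while Ezh2, the catalytic subunit, changed by -0.16 and Phf19 by -0.95. The average for Ezh2 joins different courses by virus. In Flag cells Ezh2 fell from 91.06 to 109.6 CPM at day 3 to 62.07 to 75.69 CPM at day 8. In Tet1CD cells it read 73.01 to 87.96 CPM at day 3 and 83.19 to 91.53 CPM at day 8.

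The remaining genes are mostly hydroxylases of other substrates. Hspbap1 (chr16:35770375-35828477), which binds a small heat shock protein, had 18.68 and 18.69 CPM in MEF and 87.82 and 104.4 CPM in ESC (2.36 ± 0.20, adjusted p = 1.43e-07), with reprogramming libraries at 18.4 to 31.74 CPM, all below both ESC libraries. Its median was 24.06 CPM at day 3 and 22.39 CPM at day 8. Jmjd7, a lysyl hydroxylase with only 9 to 58 counts per library, had 3.65 and 2.44 CPM in MEF, 6.58 and 6.08 CPM in Flag DMSO cells at day 3, and 9.34 and 11.28 CPM in ESC. Its call in ESC against MEF (1.75 ± 0.39, adjusted p = 0.0012) held with each ESC library, whereas that at day 3 (1.05, adjusted p = 0.0484) was lost in 7 of 10 alternatives. Jmjd6, a lysyl hydroxylase of splicing factors, had 64.78 and 127.8 CPM in ESC and 58.41 and 61.55 CPM in MEF (0.68, adjusted p = 0.048), or 0.10 with ESC 0822 alone.

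Jmjd8, a JmjC protein of the endoplasmic reticulum, had 33.07 and 22.75 CPM in MEF and 20.07 and 6.81 CPM in ESC (-1.05 ± 0.41, adjusted p = 0.0401; -0.48 with ESC 0822 alone). All 24 reprogramming libraries lay above these 4 libraries, between 34.53 and 69.54 CPM. The single libraries of MEF in DMSO, Vc and DKG read 22.47, 41.56 and 21.82 CPM, so the one in Vc lay within that range. Riox1 (chr12:83950608-83952951), a histidyl hydroxylase of a ribosomal protein, lay above all MEF and ESC libraries in 23 of 24, with 13.53 and 13.41 CPM in MEF and 22.48 to 51.34 CPM during reprogramming. In ESC it read 23.25 CPM in 0822 and 1.56 CPM in 0819, so that 1 library was above MEF and the other below. Hif1an, the asparaginyl hydroxylase of hypoxia-inducible factors, rose from a median of 51.29 CPM at day 3 to 61.84 CPM at day 8 (0.30 ± 0.08, adjusted p = 0.0143). Kdm8, Jmjd4, Riox2 and Tyw5, hydroxylases of proteins and of transfer RNA, were not called in any comparison of the main fit. With the library number as a block within each day, Kdm8 was called at day 3 against MEF. Jmjd4 was called with that block in several comparisons, among them Tet1CD against Flag. Because no counting strand is stated, reads cannot be told from those of overlapping genes on the other strand for 14 members: Hspbap1, Jmjd4, Jmjd6, Jmjd8, Kdm1b, Kdm2b, Kdm3b, Kdm5a, Kdm6b, Kdm7a, Phf2, Riox1, Riox2 and Tyw5. Jmjd6, Jmjd7 and Kdm2b overlap a gene on their own strand, which for Jmjd7 is a read-through gene.

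The methyltransferases that write these marks were counted in the same way, against the 26.8% of all genes higher and 25.7% lower in ESC than in MEF. As for the partners above, these counts use both ESC libraries together. In ESC 0822 and 0819 some of these genes differed, as Paxip1 (153.4 and 311.7 CPM) and Rybp (190.0 and 330.0 CPM). Others were closer, as Wdr5 (373.6 and 424.3 CPM) and Setdb1 (180.2 and 168.4 CPM). The H3K4 methyltransferases had 3 of 6 higher and 0 lower, led by Kmt2b (1.08) and Kmt2c (1.06), and those of H3K27 had 1 of 2 higher, Ezh2 (2.09). Those of H3K9 had 2 of 6 higher, Suv39h2 (2.15) and Setdb1 (1.40), and 1 lower, Suv39h1 (-0.57). Those of H3K36 had 1 of 5 higher, Nsd1 (1.19), and 1 lower, Nsd3 (-0.82). At day 3 in Flag DMSO cells, 3 of the 6 H3K9 methyltransferases were higher than in MEF (14.8% of all genes were), Suv39h2 (1.39), Suv39h1 (1.07) and Setdb1 (0.95), and 0 were lower.

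Among 4 JmjC relatives outside the list, Rsbn1l (0.91) and Rsbn1 (0.72) were higher in ESC than in MEF, and Kdm5d, the copy of Kdm5c on the Y chromosome, was lower (-2.41).

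**Figure D3:**
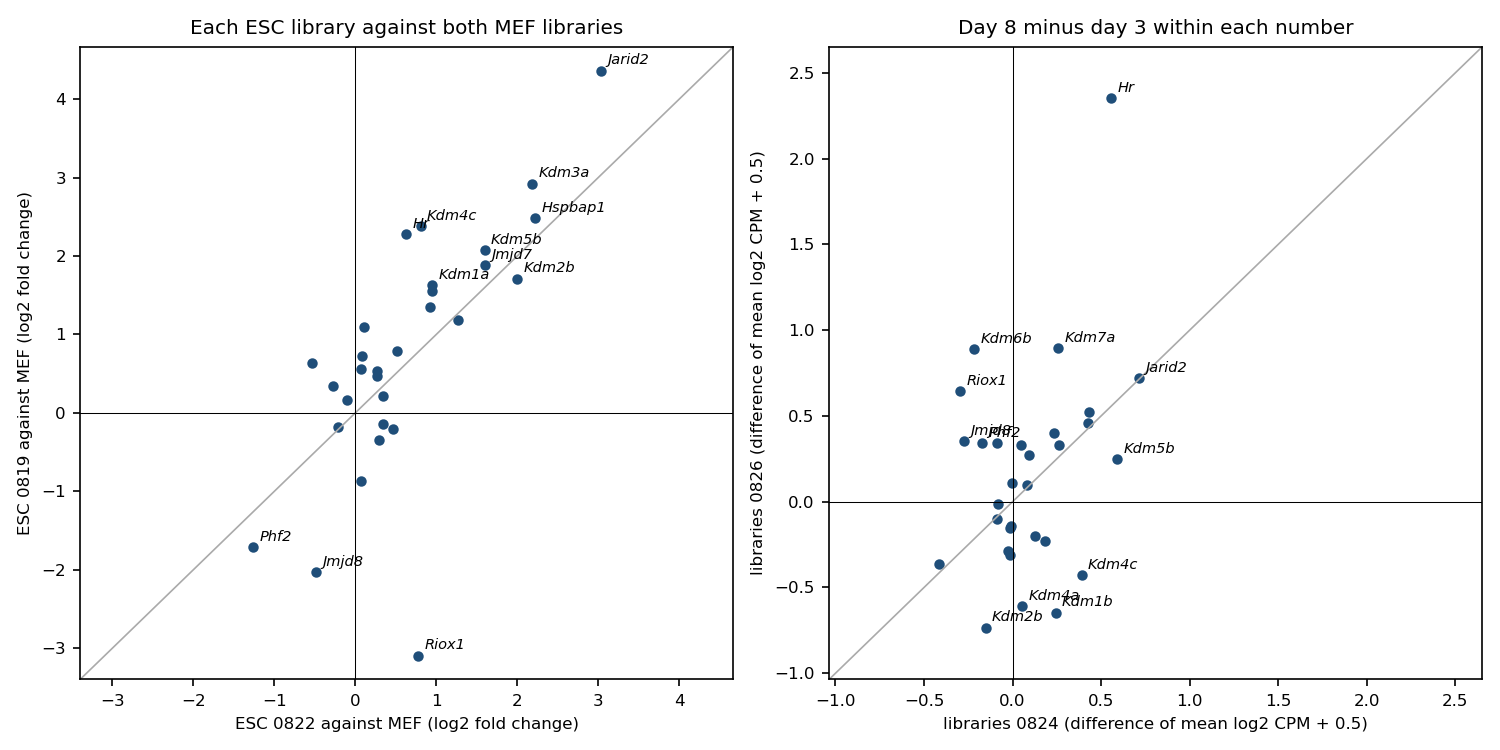
Left, log2 fold change against MEF with ESC 0822 alone (horizontal) and ESC 0819 alone (vertical); right, day 8 minus day 3 difference of mean log2(CPM + 0.5) among libraries 0824 (horizontal) and 0826 (vertical); each point is 1 of 30 genes and the grey line marks equal values. Riox1 and Kdm4c lie far from the line on the left, and Hr, Kdm6b, Riox1, Kdm4c and Kdm1b on the right.

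With ESC 0822 alone 12 genes were called higher and 1 lower than in MEF, against 20.5% and 18.0% of all genes. With ESC 0819 alone 15 were higher and 4 lower, against 28.5% and 28.1%. The 14 genes called higher with both libraries together each had a positive fold change with each library alone. It was lowest with ESC 0822 alone, at 0.08 for Kdm5a and 0.10 for Jmjd6. The others, Hspbap1, Jarid2, Jmjd1c, Jmjd7, Kdm1a, Kdm2b, Kdm3a, Kdm3b, Kdm4c, Kdm5b, Kdm6a and Phf8, had 0.52 or more with each library. Phf2 had -1.26 with ESC 0822 alone and -1.71 with ESC 0819 alone. The fibroblast marker sum differs between these libraries as given above, and its part in the values was not tested. Among the day differences, 11 of the 30 genes had opposite signs in the 2 numbers (not counted over all genes). These were Kdm1b, Kdm4a, Kdm4c, Kdm5a, Kdm6b, Phf2, Jmjd6, Jmjd8, Riox1, Riox2 and Tyw5. None of these 11 was called between days in the fit without a block, where opposite signs widen the spread. With the library number as a block within each day, Kdm4a (-0.28), Kdm6b (0.34) and Riox1 (0.17) were called, against 52.8% of all genes. This block takes the spread between numbers out of the error.

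How far cells in Vc at day 8 were from ESC was asked with the mean of the Flag and Tet1CD groups; this contrast shares its ESC libraries with that against MEF. Of the 30 genes, 11 were higher in ESC and 5 lower, against 23.3% and 21.4% of all genes tested. The genes furthest below ESC were Hspbap1 (2.08 ± 0.16, adjusted p = 3.71e-08), Kdm5b (2.03 ± 0.16, adjusted p = 6.92e-08) and Jarid2 (1.96 ± 0.39, adjusted p = 0.000582). Jarid2 read 113.6 and 56.99 CPM in Flag and 118.9 and 61.78 CPM in Tet1CD cells, and with ESC 0822 alone its difference fell to 1.14 (adjusted p = 0.0555). Kdm5b read 122.8 and 105.9 CPM in Flag and 125.3 and 87.65 CPM in Tet1CD cells, and Hspbap1 27.47 and 20.39 CPM in Flag and 21.35 and 21.77 CPM in Tet1CD cells.

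Hr and Kdm7a stood above ESC in those cells. Hr read 35.12 and 94.58 CPM in Flag and 19.75 and 37.22 CPM in Tet1CD cells (ESC minus Vc cells -2.89 ± 0.66, adjusted p = 0.0018). Kdm7a read 98.88 and 130.2 CPM in Flag and 70.29 and 91.37 CPM in Tet1CD cells (-2.03 ± 0.31, adjusted p = 6.06e-05). Jmjd8 (-1.82), Phf2 (-1.70) and Riox1 (-1.58) were also lower in ESC. The call of Riox1 was lost with ESC 0822 alone (-0.67, adjusted p = 0.232). With ESC 0822 alone 7 genes were higher and 4 lower, against 15.0% and 14.3% of all genes, and with ESC 0819 alone 13 higher and 7 lower, against 24.4% and 26.6%.

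Vitamin C is a cofactor of JmjC enzymes, and the next comparison asked whether it changed their RNA. By edgeR 0 of the 30 genes were called between Vc and DMSO, averaged over virus and day, against 0.59% of all genes (83 higher and 5 lower). DESeq2 also called 0, against 1.15% of all genes. At an unadjusted p under 0.05 there were 2 of 30, Kdm4b and Kdm2a, against 6.75% of all genes, so the members' share was close to the background. They are given here because they had the smallest p. Kdm4b read 51.29 and 34.11 CPM in Flag DMSO and 40.15 and 33.58 CPM in Flag Vc cells at day 3, and 47.2 and 55.12 CPM against 37.86 and 42.25 CPM at day 8. In Tet1CD cells it read 40.19 and 30.39 CPM in DMSO and 27.21 and 23.78 CPM in Vc at day 3, and 40.54 and 34.02 CPM against 33.99 and 27.91 CPM at day 8. The group mean in Vc was lower in 4 of 4 pairs, with overlap of single libraries only in Flag cells at day 3, and the fold change was -0.33 (95% interval -0.57 to -0.08, adjusted p = 0.434). Kdm2a had -0.13 (interval -0.24 to -0.01, adjusted p = 0.666), also lower in 4 of 4. With the library number as a block within each day, edgeR called 1 of the 30, Kdm4b (-0.32, adjusted p = 0.00833), against 9.43% of all genes.

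By day, 0 genes were called at day 3 (0.121% of all genes), at day 8 (0.201%) or for the difference between the days (0.0%) with edgeR. DESeq2 called 0 in each (0.375% and 0.603% of all genes by day), and an unadjusted p under 0.05 was reached by 0 in each, against 2.87%, 6.1% and 1.16% of all genes. With the within-day block 1 gene was called at day 8, Kdm7a (-0.43, adjusted p = 0.019), against 8.25% of all genes. Kdm4b came first by p at day 3 (-0.34, adjusted p = 1.0) and at day 8 (-0.31, adjusted p = 0.896). Kdm2a followed at day 3 (-0.15) and Kdm7a at day 8 (-0.40, interval -0.88 to 0.07, adjusted p = 0.932). For the difference between the days, Kdm7a (-0.51, interval -1.18 to 0.17) and Hspbap1 (-0.29) had the smallest p. The intervals, from the fit without a block, show how much that fit could have missed. For the Vc average over both days, those of Kdm3b (-0.19 to 0.07) and Jmjd1c (-0.13 to 0.20) were narrow, while those of Hr (-0.71 to 0.64) and Riox1 (-0.60 to 0.68) were wide. With the within-day block, Kdm3b had -0.064 ± 0.048 and Jmjd1c 0.034 ± 0.057. Hr had -0.063 ± 0.125 and Riox1 0.039 ± 0.067 with that block, smaller errors than the wide intervals imply. In MEF, with 1 library per medium and no test, Kdm3a read 53.28 CPM in DMSO, 38.86 CPM in Vc and 40.83 CPM in DKG.

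DKG gave 0 calls among the 30 genes and 0.0% of all genes with edgeR, 0 with DESeq2, and 0 at an unadjusted p under 0.05 (0.436% of all genes). Fold changes lay between -0.19 (Jmjd7) and 0.13 (Riox2). Kdm4b (-0.17, interval -0.42 to 0.08) and Phf8 (-0.11, interval -0.29 to 0.07) had the smallest p, each lower in 4 of 4 pairs of group means. DMSO groups are shared between the contrasts of Vc and DKG.

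**Figure D4:**
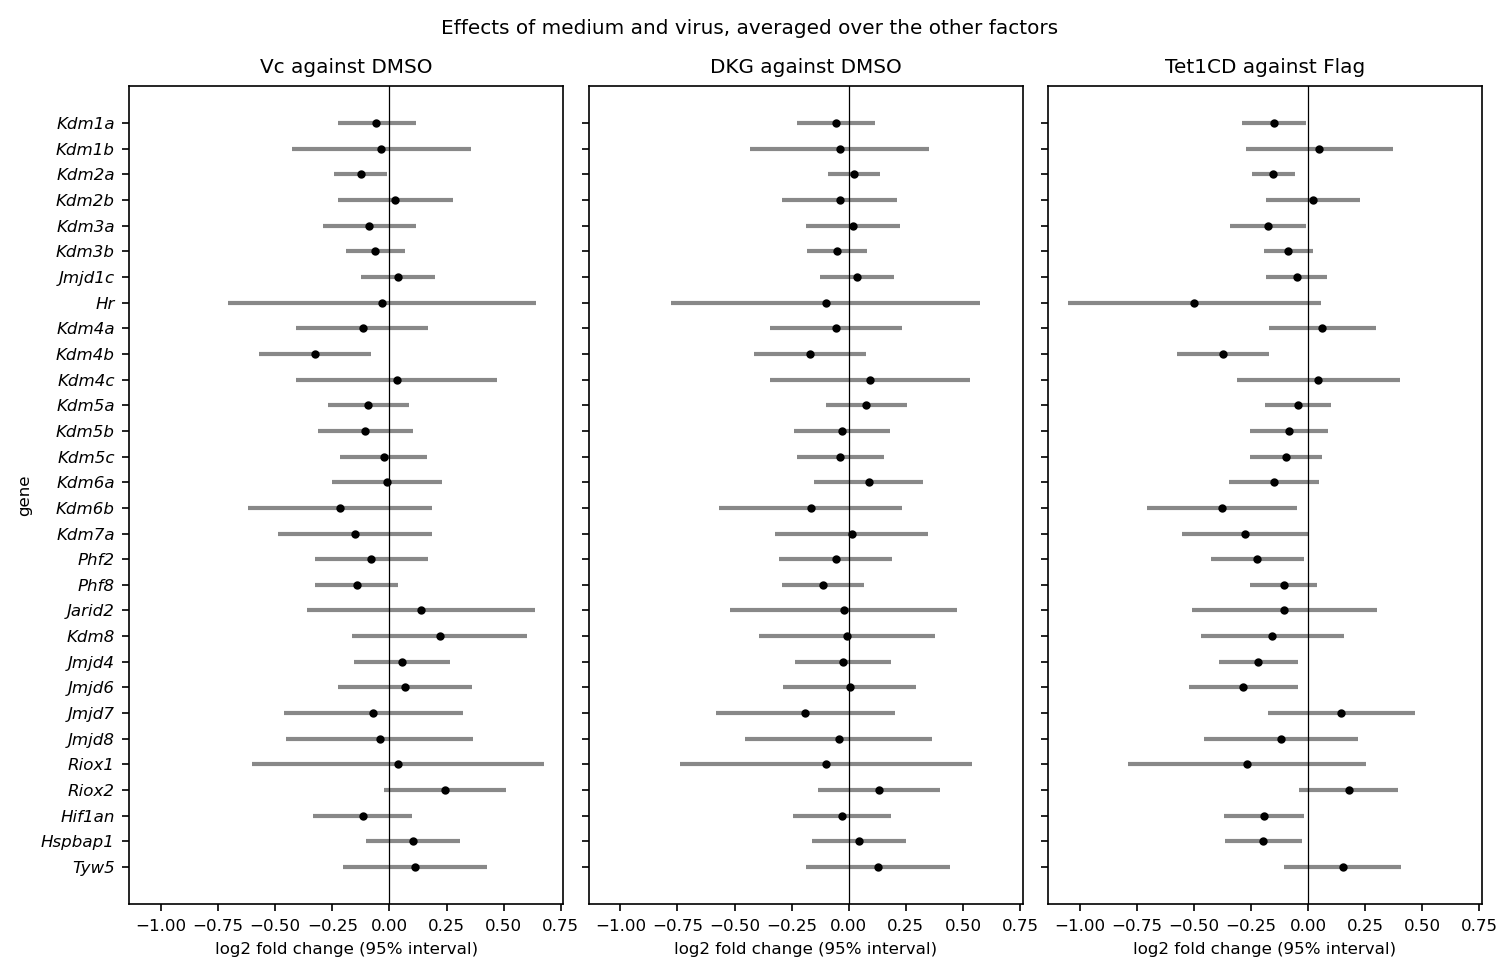
Log2 fold change (points) with 95% interval (lines) of the 30 tested genes for Vc against DMSO, DKG against DMSO and Tet1CD against Flag, each averaged over the other factors. In the panel of Tet1CD 23 of 30 points lie below 0, and Kdm4b has -0.37 with an interval of -0.57 to -0.17.

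Tet1CD against Flag, averaged over medium and day, gave 0 calls among the 30 genes by edgeR, against 2.1% of all genes (268 higher and 45 lower). By DESeq2 2 genes were called, Kdm4b and Kdm2a, both lower, against 3.45% of all genes. With the library number as a block within each day, 13 of 30 were called, all lower, against 22.6% of all genes (1797 higher and 1581 lower). These were Kdm1a, Kdm2a, Kdm3a, Hr, Kdm4b, Kdm6b, Kdm7a, Phf2, Jmjd4, Jmjd6, Riox1, Hif1an and Hspbap1, with fold changes from -0.15 (Kdm1a) to -0.47 (Hr). At an unadjusted p under 0.05 there were 11 of 30 (36.7%), all of them lower in Tet1CD cells, against 12.4% of all genes in either direction. The median fold change was -0.13 in the list and 0.00 over all genes, and 7 of 30 were positive. The group mean was lower in Tet1CD cells in 6 of 6 pairs for 11 of 30 genes, against 8.62% of all genes. These were Kdm1a, Kdm2a, Kdm3b, Hr, Kdm4b, Kdm6b, Kdm7a, Phf8, Jmjd6, Riox1 and Hif1an. Riox2 was the 1 gene higher in 6 of 6, against 8.07% of all genes.

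Kdm4b was again first by p, at -0.37 ± 0.10 (adjusted p = 0.0524), just short of a call, or -0.37 with the within-day block (adjusted p = 0.000253). It was called without the Flag libraries DMSO 0826 or DKG 0826 of day 3, and without the Tet1CD libraries 0824 of DMSO at day 3, DKG at day 3 or DKG at day 8. Flag cells in DKG read 43.19 and 32.52 CPM at day 3 and 44.75 and 42.6 CPM at day 8, and Tet1CD cells in DKG 36.27 and 26.15 CPM and 39.58 and 30.2 CPM. Within each number, then, the Tet1CD library was below its Flag counterpart in these groups. Kdm2a had -0.15 ± 0.05 (adjusted p = 0.107), from 200.2 ± 14.6 CPM (SD, n = 2) in Flag DMSO cells at day 3 to 193.3 ± 1.6 CPM in Tet1CD DMSO cells, and from 199.0 ± 2.4 to 165.8 ± 0.3 CPM at day 8. For the difference of the Vc effect between Tet1CD and Flag cells, edgeR called 0 of the 30 genes against 0.148% of all genes, with 0 by DESeq2 (0.174%), and 0 at an unadjusted p under 0.05 against 1.98%. Jmjd4 (-0.24, interval -0.66 to 0.19) and Kdm3a (-0.19, interval -0.60 to 0.22) had the smallest p.

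In the 8 lists of partners and methyltransferases, edgeR called 0 genes for the averages of Vc, DKG and Tet1CD. DESeq2 called 1, Setdb1 for Tet1CD. At an unadjusted p under 0.05, where all genes had 12.4% for Tet1CD, 6.75% for Vc and 0.436% for DKG, Tet1CD had 3 of 6 H3K4 methyltransferases, 2 of 9 partners of Kdm6a, 2 of 6 H3K9 methyltransferases and 1 of 11 partners of Kdm1a. Vc had 1 of 11 partners of Jarid2, 1 of 6 H3K9 and 1 of 5 H3K36 methyltransferases, and DKG had 0.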

How the data were processed

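Trizol-extracted total RNA went into TruSeq libraries, per the labels' protocols. Bowtie and RSEM were used with mm10, per the submitters' processing notes, with no versions given. The authors deposited RSEM gene tables with expected counts, TPM and FPKM values, per the file headers. Expected counts were rounded to whole numbers and tested with edgeR 4.0.16 (R 4.3.3; glmQLFit and glmQLFTest, two-sided) on 14914 genes passing filterByExpr, with 1 mean per group over 28 libraries, TMM and Benjamini-Hochberg adjustment over all genes. The deposited TPM served for levels between genes and for limma 3.58.1 on log2(TPM + 1); the deposited FPKM was not used. SE was derived from the log2 fold change and the F statistic. Of 29267 identifiers, 511 had no symbol in GENCODE release M21 (mm10) and held at most 0.392% of a library's counts. Equal numbers (0824 or 0826) were taken to pair libraries within a day, since the deviations of every pair of groups correlated across genes (0.356 to 0.504 within day 3, 0.345 to 0.687 within day 8), but not across days (-0.01 to 0.18); the labels do not say what a number marks. Libraries of a group always differed by more than sampling noise. The members and lists were chosen with earlier results of these data known. Members with an adjusted p under 0.05 were counted, and up to 5 with the largest fold change are given by library; where none passed, the 2 with the smallest p. Alternatives were DESeq2 1.42.0, its size factors in edgeR, no low-count filter, limma, replicate blocks and each library left out. The procedure was tested on simulated data with 200 changed genes. At these depths 3 counts, the upper limit for a count of 0, are below 1 CPM; this covers counting error only.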

Additional observations from a re-analysis of the deposited data

How the results depend on the processing

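Alternatives of single genes cover those called in a contrast, or the 2 with the smallest p where none was called. Of these 910 values, 854 kept direction and side of the threshold, 43 lost a call and 13 gained one, and 0 changed sign. Only genes of the second kind could gain a call here. Calls gained by other genes enter only the counts that follow. Counts of called genes stayed within 1.5 times except as follows. With the number 0824 or 0826 as 1 replicate block, day 3 against MEF had 13 calls (44.2% of all genes) and Tet1CD against Flag 5 (7.95%). With a within-day replicate block they had 21 (56.1%) and 13 (22.6%), day 8 against day 3 had 17 (52.8%), Vc against DMSO had 1 (Kdm4b, -0.32; 9.43%) and Vc at day 8 had 1 (Kdm7a, -0.43; 8.25%). The blocks left the other contrasts within a day at 0 calls. The numbers do not pair libraries across days, where this block takes the spread between numbers out of the error, so its counts for day 3 against MEF and for day 8 against day 3 are given as values only. DESeq2 called 2 for Tet1CD. With each library left out, the count ranged from 2 to 4 for day 3 against MEF and from 0 to 1 for Tet1CD against Flag, from 13 to 19 for ESC against MEF and from 11 to 20 for ESC against day 8 Vc cells; a lone library was assumed to vary like the other groups. DESeq2's size factors moved the median of all genes by at most 0.05. Depth limits Kdm4d, Jmjd7, Kdm8 and Hr in MEF. The causes of these differences were not tested.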
